A study of Mus musculus with 12 samples.

Results

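Genes that act when myoblasts adhere and fuse were followed in the tibialis anterior, a mostly fast-twitch muscle of the lower hindlimb, of control and Smyd1 conditional-knockout mice. The 10 genes, Tmem8c, Myof, Kirrel, Cdh15, Cdh2, Jam2, Jam3, Cdon, Boc and Vcam1, were picked by symbol for their roles. Their values were not a criterion, but earlier results of these data were known when they were picked. All 10 were listed among the 23923 genes of every sample, and all 10 were among the 12695 genes expressed highly enough to be tested. RNA was sequenced from 12 mice aged 6 weeks on a mixed C57BL6/J;129S1/SvImJ background, with 6 mice in each group and 1 library per mouse. Controls were Myf6 cre/+; Smyd1 flox/+ and conditional knockouts (CKOs) were Myf6 cre/+; Smyd1 flox/-, so that both groups carried the Cre allele and a floxed Smyd1 allele, and they differed in the other Smyd1 allele, which was wild type in controls and null in CKOs. Per the methods of the study, the cross also gave the mice a Rosa26 YFP reporter allele. Smyd1 encodes a lysine methyltransferase of striated muscle. Cre was driven from the Myf6 locus, which is active in differentiated myocytes, and the libraries were made from whole muscle, so other cells of the muscle contributed RNA without being a target of Cre. The comparison asks whether genes of ongoing fusion, as in regenerating muscle, differed between the groups.

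Skeletal myofibers form when mononucleated myoblasts recognize each other, align, and merge their membranes. Cadherins, junctional adhesion molecules, and immunoglobulin superfamily receptors act in recognition and adhesion, and the muscle-specific membrane protein myomaker acts at the merger itself. In adult muscle at rest fusion is rare, whereas after injury satellite cells divide, differentiate, and switch on many of these genes again. Several of the adhesion genes are also used by endothelial cells, fibroblasts, nerve, and immune cells.

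Values are FPKM, sequenced fragments scaled to the length of the transcript and the depth of the library. The depth, estimated from the spacing of the lowest FPKM values, was between 10800000 and 16600000 reads in controls and between 10600000 and 19100000 reads in CKOs. Smyd1 itself ranged from 32.9 to 47.1 FPKM in controls with a median of 34.9, and from 27.8 to 39.9 FPKM in CKOs with a median of 33.5. These ranges overlapped (limma, log2 fold change -0.13, SE 0.12, adjusted P = 0.545), but an FPKM over the whole gene also counts reads outside the deleted part, so it does not check the labels. By western blot, the study reported SMYD1 protein as undetectable in the tibialis anterior of CKOs. Control 1 stood apart from the other controls. Its summed FPKM of 8 fibro-adipogenic and fibroblast markers was 732 against 190 to 243 in controls 2 to 6, that of 8 macrophage and leukocyte markers was 43.2 against 11.3 to 19.7, and that of 5 tendon markers was 54.9 against 16.3 to 28.8. Over all tested genes the median log2 fold change of CKO against control was 0.18, and 77.9% of genes had a positive one, so a log2 fold change of 0.18 was that of the typical gene. Scaling the samples by median ratios brought this median to 0.0079.

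No member passed an adjusted P below 0.05 in all 12 mice (limma, 0 of 10 in either direction), where 2.02% of tested genes passed as higher and 0.268% as lower in CKOs. At an unadjusted P below 0.05, Jam3, Boc, Kirrel and Vcam1 were higher in CKOs, which is 4 of 10 members against 18.1% of tested genes, and no member was lower, against 1.76% of tested genes. The mean was higher in CKOs for 9 of 10 members, all but Tmem8c, and the median log2 fold change of the members was 0.25. These counts depended on control 1, which had the highest control value for 9 of 10 members, against 44.7% of tested genes. With median-ratio scaling, 2 members, Jam3 and Vcam1, were higher at an unadjusted P below 0.05, against 6.62% of tested genes, and the median log2 fold change of the members was 0.078. Without control 1, the same 4 genes passed the adjusted threshold, against 8.4% of tested genes, and 6 members passed the unadjusted one, against 27% of tested genes. In CKOs 1, 3 and 6 summed slow myofiber markers were 75.0 to 271 FPKM, against 14.1 to 46.0 FPKM in controls. Without these mice, only Vcam1 was left at an unadjusted P below 0.05, and 7% of tested genes were higher. That fit held fewer CKOs, so losing a call does not tie a gene to these mice. Its log2 fold changes were 0.32 for Jam3, 0.40 for Boc and 0.40 for Kirrel, with SEs of 0.20, 0.33 and 0.24. With all 12 mice they were 0.45, 0.61 and 0.41, with SEs of 0.15, 0.25 and 0.17. With whole muscle as the sample, a change in the number of cells of a type cannot be told apart from a change in RNA per cell.

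**Figure D1:**
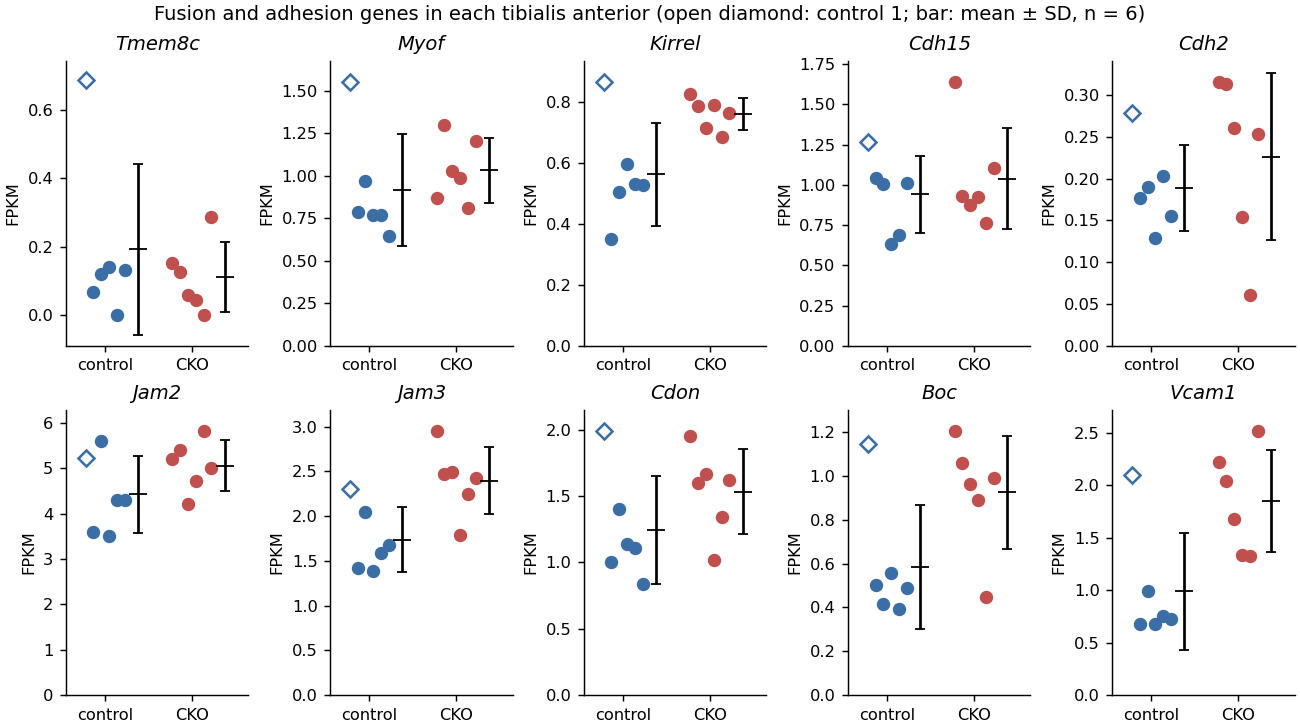
FPKM of the 10 genes in each tibialis anterior, with one panel per gene and a separate axis for each; points are mice, the open diamond is control 1, and bars are the mean and SD of 6 mice. Control 1 lies above the other controls for every gene but Jam2, and the 6 CKO values of Kirrel and of Vcam1 lie above those of controls 2 to 6.

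In controls the members lay between the 8.81 and the 76th percentile of the tested genes. Their levels set how closely each could be followed. Jam2 had the highest control mean at 4.42 ± 0.847 FPKM (SD, n = 6), followed by Jam3 at 1.74 ± 0.364, Cdon at 1.25 ± 0.409 and Vcam1 at 0.987 ± 0.556. Cdh15, Myof, Boc and Kirrel lay between 0.942 and 0.562, and Tmem8c and Cdh2 were last at 0.192 and 0.189 FPKM. Only the ranges of the neighbors Jam2 and Jam3 were apart, and all other neighbors in this order overlapped. The places of Vcam1 and Tmem8c in controls rested on control 1. Without it Vcam1 was at 0.765 ± 0.131 FPKM (SD, n = 5), below Cdh15 at 0.877 and Myof at 0.789, and Tmem8c was at 0.0924 FPKM, below Cdh2 at 0.171. In CKOs Vcam1 lay between Jam3 and Cdon, and Tmem8c was last, and the neighbors that were apart were Jam2 from Jam3 and Kirrel from Cdh2. In estimated reads, the control median ran from 2 for Tmem8c to 253 for Jam2. Counting error alone therefore gave a coefficient of variation of 66.2% for Tmem8c and 28.3% for Cdh2 at the control median, but 6.29% for Jam2.

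Tmem8c encodes myomaker, the membrane protein that muscle cells need in order to fuse and that is switched off once fusion is complete. It ranged from 0 to 0.687 FPKM in controls with a median of 0.127, and from 0 to 0.287 FPKM in CKOs with a median of 0.0921. Apart from control 1, no mouse of either group exceeded 0.287 FPKM, and the groups overlapped over the whole range of the CKOs. In estimated reads, control 1 held 10 and the other controls 0 to 3, and CKOs held 0 to 5, for totals of 19 in controls and 13 in CKOs. Control 5 and CKO 5 were listed at 0. A count of 0 allows up to 3 reads, which is 0.158 FPKM in control 5 and 0.204 FPKM in CKO 5. The log2 fold change on the FPKM + 0.1 scale was -0.28 with a 95% interval from -1.21 to 0.65 (limma, adjusted P = 0.742). It turned to 0.068 without control 1, with a 95% interval from -0.71 to 0.84. The other muscle fusion protein, myomerger (listed as Gm7325), was above 0 in only 2 mice, at 0.0906 FPKM in control 3 and 0.0646 FPKM in CKO 1, about 1 read each, and was too low to test.

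Myof encodes myoferlin, a ferlin with calcium-binding C2 domains that acts in fusion of myoblasts with myotubes and in membrane repair. It ranged from 0.644 to 1.55 FPKM in controls with a median of 0.780, and from 0.809 to 1.30 FPKM in CKOs with a median of 1.01. Control 1 was the highest of all 12 mice, and the groups overlapped. The log2 fold change was 0.19 (SE 0.19, adjusted P = 0.591). Without control 1 it was 0.34 (unadjusted P = 0.0486, adjusted P = 0.171), where the median of all tested genes was 0.22, and without control 6 it was 0.11.

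Kirrel encodes a nephrin-like immunoglobulin receptor whose fly relatives mediate recognition between founder and fusion-competent myoblasts. It ranged from 0.351 to 0.863 FPKM in controls with a median of 0.528, and from 0.684 to 0.826 FPKM in CKOs with a median of 0.775. The 6 CKOs were all above controls 2 to 6, which reached 0.597 FPKM, and all below control 1. The SD was 0.0526 FPKM in CKOs and 0.169 FPKM in controls, or 0.0913 FPKM without control 1. The log2 fold change was 0.41 (SE 0.17, unadjusted P = 0.0313), and the adjusted P was 0.204. Without control 1 it was 0.53 with an adjusted P of 0.0493, but under median-ratio scaling the adjusted P without control 1 was 0.268.

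Cdh15 and Cdh2 encode M-cadherin and N-cadherin, the calcium-dependent adhesion molecules of myoblasts, and M-cadherin is also found on quiescent satellite cells. Cdh15 ranged from 0.630 to 1.27 FPKM in controls with a median of 1.01, and from 0.761 to 1.64 FPKM in CKOs with a median of 0.929. Cdh2 ranged from 0.129 to 0.279 FPKM in controls with a median of 0.183, and from 0.0607 to 0.315 FPKM in CKOs with a median of 0.257. The groups overlapped for both genes. CKO 1 alone lay above the controls for Cdh15, and CKO 5 was the lowest of all mice for Cdh2. The log2 fold change was 0.12 for Cdh15, with a 95% interval from -0.30 to 0.55, and 0.12 for Cdh2, with a 95% interval from -0.42 to 0.66 (limma, adjusted P = 0.752 and 0.814). Leaving out CKO 5 gave 0.31 for Cdh2, and leaving out CKO 1 gave 0.038. The sign of neither gene was stable. Cdh15 was at -0.046 on the log2 scale with median-ratio scaling and -0.0063 without CKO 1, and both were negative without CKOs 1, 3 and 6.

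Jam2 and Jam3 encode junctional adhesion molecules B and C, a pair of immunoglobulin proteins that bind each other across cells, serve fusion in the fish embryo, and are abundant at endothelial junctions. Jam2 ranged from 3.51 to 5.6 FPKM in controls with a median of 4.30, and from 4.21 to 5.82 FPKM in CKOs with a median of 5.10. The groups overlapped and the log2 fold change of Jam2 was 0.20, with a 95% interval from -0.074 to 0.48 (adjusted P = 0.387). Of the 10 members Jam2 had the most reads, and its interval was the narrowest.

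Jam3 ranged from 1.39 to 2.30 FPKM in controls with a median of 1.63, and from 1.79 to 2.95 FPKM in CKOs with a median of 2.45. Of the 6 CKOs, 4 were above all controls and 5 were above controls 2 to 6. The log2 fold change was 0.45 (SE 0.15, 95% interval 0.13 to 0.77, unadjusted P = 0.00927), and the adjusted P was 0.126. It was 0.53 with an adjusted P of 0.0346 without control 1, and 0.27 with an adjusted P of 0.322 after median-ratio scaling. The summed endothelial markers, 10 genes, ranged from 43.6 to 56.5 FPKM in controls and from 44.7 to 64.8 FPKM in CKOs, and none of the 10 differed at an unadjusted P below 0.05 with or without control 1. An exon of Jam3 and one of Vcam1 overlap genes annotated on the opposite strand, and whether strand was used in counting is not given in the sources used here.

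Cdon and Boc encode related immunoglobulin and fibronectin domain receptors that bind cadherins and Hedgehog ligands and promote myogenic differentiation. Cdon ranged from 0.833 to 1.99 FPKM in controls with a median of 1.12, and from 1.02 to 1.95 FPKM in CKOs with a median of 1.61. Control 1 was the highest of all mice for Cdon, and the log2 fold change was 0.30 (SE 0.20, adjusted P = 0.391), or 0.44 without control 1 (unadjusted P = 0.0226, adjusted P = 0.113). Boc ranged from 0.394 to 1.15 FPKM in controls with a median of 0.495, and from 0.446 to 1.21 FPKM in CKOs with a median of 0.978. For Boc, 5 of 6 CKOs were above controls 2 to 6, and CKO 5, at 0.446 FPKM, lay within their range of 0.394 to 0.559 FPKM. The log2 fold change of Boc was 0.61 (SE 0.25, unadjusted P = 0.0267), and the adjusted P was 0.190. Without control 1 it was 0.80 with an adjusted P of 0.0321, and 0.60 with an adjusted P of 0.150 when median-ratio scaling was used as well. Whether Cdon and Boc differ from each other in their fold change was not tested.

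Vcam1 encodes an adhesion molecule of the immunoglobulin superfamily that binds integrin alpha4 beta1. It marks satellite cells and is also made by activated endothelium, pericytes, and fibroblasts. Its FPKM ranged from 0.678 to 2.1 in controls with a median of 0.737, and from 1.33 to 2.51 in CKOs with a median of 1.86. The 6 CKOs were all above controls 2 to 6, which reached 0.993 FPKM, and 2 CKOs were above control 1, at 2.1 FPKM. Vcam1 and Kirrel were thus the 2 of 10 members with no overlap against controls 2 to 6, which held for 6.1% of tested genes. No member had all CKOs above all 6 controls, which held for 2.23% of tested genes. Vcam1 had the largest log2 fold change of the 10 members, 0.92 (SE 0.25, 95% interval 0.39 to 1.46, unadjusted P = 0.00221), and it missed the threshold with an adjusted P of 0.0669. It was 1.15 with an adjusted P of 0.00296 without control 1, and 0.93 with an adjusted P of 0.0105 without control 1 and with median-ratio scaling, where Vcam1 was the only member to pass and 1.42% of tested genes were higher. With median-ratio scaling of all 12 mice the adjusted P was 0.111. Without CKOs 1, 3 and 6 the log2 fold change was 0.71 with an unadjusted P of 0.0468 and an adjusted P of 0.598. With fewer CKOs in that fit, the SE was 0.32.

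**Figure D2:**
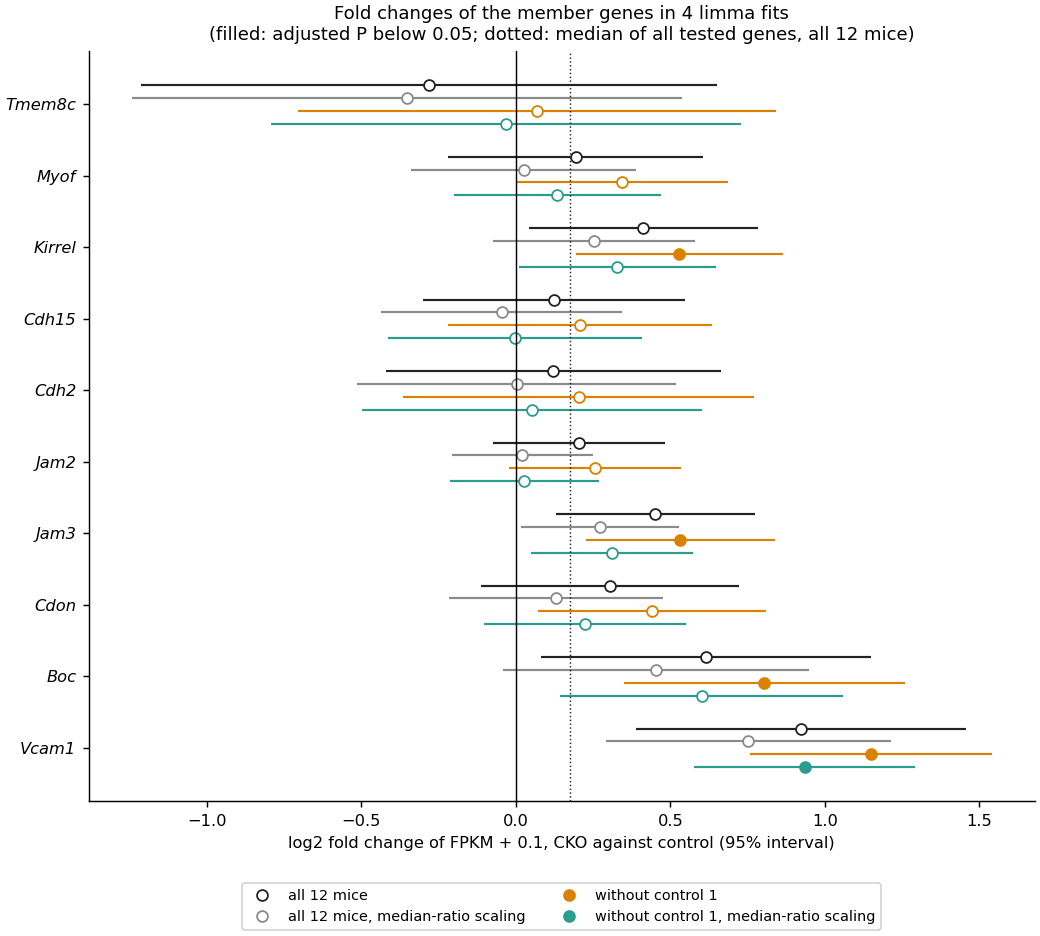
Log2 fold changes of FPKM + 0.1, CKO against control, for the 10 genes in 4 limma fits; points are estimates, lines are 95% intervals, filled points have an adjusted P below 0.05, and the dotted line is the median of all tested genes at 0.18. No point of the 2 fits with all 12 mice is filled, 4 are filled without control 1, and that of Vcam1 alone is filled without control 1 after median-ratio scaling.

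Among CKOs, CKO 1 had the highest value for 6 of 10 members, against 20.1% of tested genes, and CKO 5 had the lowest for 7 of 10, against 22.7% of tested genes. CKO 1 was the most deeply sequenced library and CKO 5 the least, at 19100000 and 10600000 reads. Markers of other cell types were also high in some of the mice with high members. The summed fibro-adipogenic and fibroblast markers ranged from 259 to 437 FPKM in CKOs, above controls 2 to 6 and below control 1, and without control 1 these markers were higher in CKOs for 5 of 8 genes at an adjusted P below 0.05. Summed macrophage and leukocyte markers ranged from 15.0 to 26.5 FPKM in CKOs, and without control 1, 6 of 8 passed an unadjusted P below 0.05 as higher and 0 an adjusted one. Summed satellite cell markers, 8 genes, ranged from 12.4 to 19 FPKM in controls and from 16.3 to 25.1 FPKM in CKOs, with 4 of 8 higher at an unadjusted P below 0.05 in all 12 mice and 0 at an adjusted one, and 3 and 2 of 8 without control 1. With median-ratio scaling, 2 of 8 were higher at an unadjusted P. Over all tested genes, 18.1% were higher at an unadjusted P in all 12 mice and 2.02% at an adjusted one. Without control 1 the shares were 27% and 8.4%, and with median-ratio scaling 6.62% were higher at an unadjusted P. No list had a marker at 0 in all 12 mice. The part of these cells in the values of Vcam1, Kirrel, Boc and Jam3 was not tested.

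**Figure D3:**
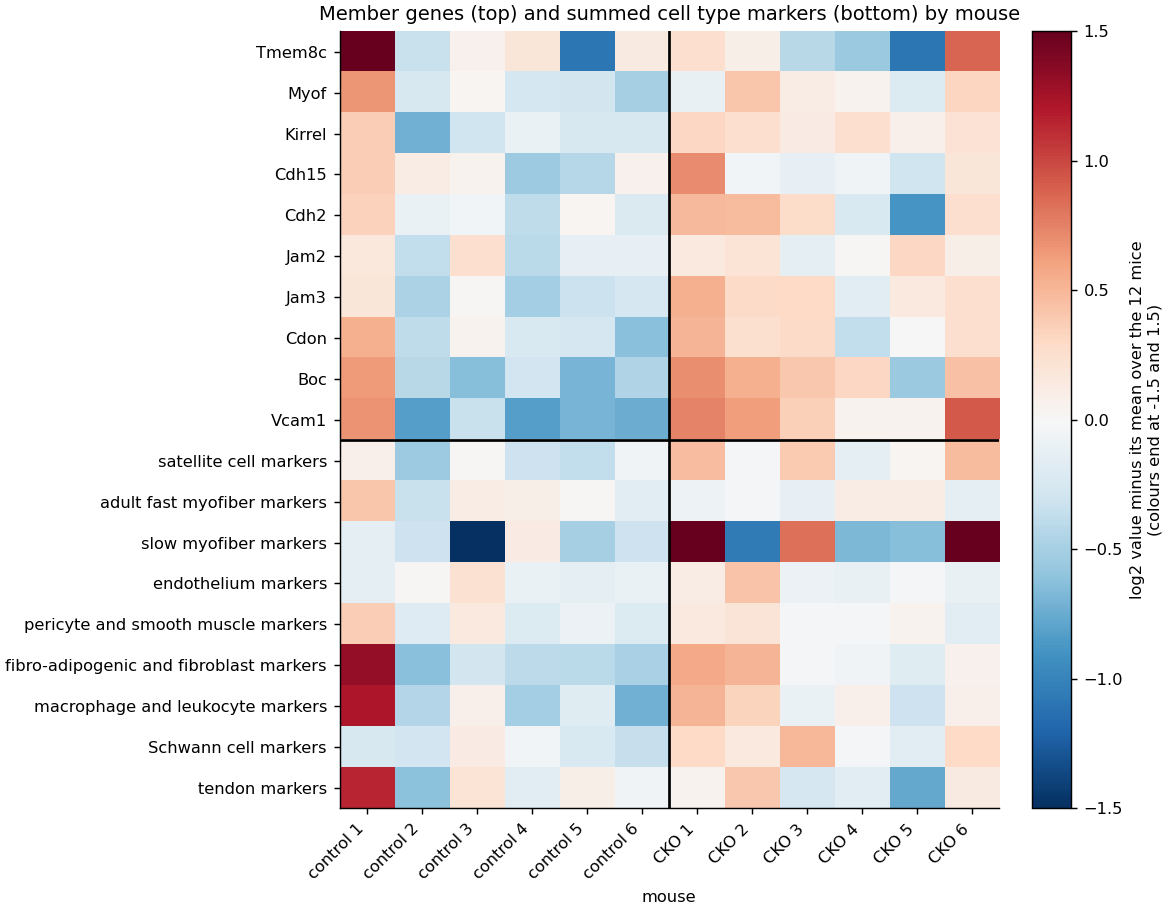
Log2 value of each of the 10 genes (top) and of the summed FPKM of 9 marker lists (bottom) in each of the 12 mice, minus its mean over the mice; red is above the mean, blue below. The column of control 1 is red for all 10 genes and for the fibro-adipogenic, macrophage and tendon markers, and the slow myofiber markers are highest in CKOs 1, 3 and 6.

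Genes that work with the 10 were then counted in 6 lists. Over all tested genes, 2.02% passed the adjusted threshold as higher and 0.268% as lower, and the median log2 fold change was 0.18. With median-ratio scaling the median of all tested genes was 0.0079. The list medians were then 0.18 for partners, 0.0090 for the cadherin complex and 0.19 for membrane fusion. They were 0.046 for actin remodeling, 0.093 for secreted regulators and 0.50 for regenerating genes. Among partners and ligands of the receptors, 14 of 21 genes were tested, 1 passed the adjusted threshold as higher and 0 as lower, and the median log2 fold change was 0.31. The gene that passed was Itgb1, the beta1 integrin subunit, which rose from 37.0 ± 7.87 to 60.0 ± 8.46 FPKM (SD, n = 6; log2 fold change 0.71, adjusted P = 0.0133), and it passed with median-ratio scaling too (adjusted P = 0.0118). Itga4, the alpha4 subunit that completes the Vcam1 receptor and is named here after its values were seen, was at 1.66 ± 0.546 FPKM in controls and 2.58 ± 1.02 FPKM in CKOs (log2 fold change 0.59, adjusted P = 0.267). Shh, Nphs1 and Igsf5 were listed at 0 in all mice.

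In the cadherin complex, 8 of 9 genes were tested and 2 were higher, with a median of 0.19. Jup, plakoglobin, rose from 3.01 ± 0.374 to 4.67 ± 0.636 FPKM (log2 fold change 0.62, adjusted P = 0.0156) and Ctnna1, alpha-catenin, from 8.42 ± 0.559 to 12.1 ± 2.12 FPKM (0.50, adjusted P = 0.0363). With median-ratio scaling neither passed, at an adjusted P of 0.143 and 0.171. The cadherins that they anchor, Cdh15 and Cdh2, had log2 fold changes of 0.12 each.

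Among genes of membrane fusion and phosphatidylserine exposure, 19 of 25 were tested, 2 were higher and 0 lower at the adjusted threshold, and the median was 0.32. Dnm2, the membrane-severing GTPase dynamin 2, rose from 4.20 ± 0.491 to 5.73 ± 0.606 FPKM (log2 fold change 0.44, adjusted P = 0.0460). By real-time PCR of this muscle, the study reported Dnm2 as unchanged. Dysf, dysferlin, a ferlin of membrane repair related to myoferlin, rose from 6.20 ± 0.944 to 8.41 ± 0.574 FPKM (0.45, adjusted P = 0.0477). Both lost the call with median-ratio scaling, at an adjusted P of 0.217 and 0.391.

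Of the genes of actin remodeling during fusion, 33 of 35 were tested, 2 were higher and 0 lower, and the median was 0.23. Pak1, a kinase downstream of Rac, rose from 4.71 ± 0.780 to 9.17 ± 1.55 FPKM (log2 fold change 0.94, adjusted P = 0.00251). Sh3pxd2a, the podosome scaffold TKS5, rose from 2.76 ± 0.141 to 5.15 ± 1.25 FPKM (0.84, adjusted P = 0.00881). Both passed with median-ratio scaling, at an adjusted P of 0.00494 and 0.0313.

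Among secreted regulators of fusion, 14 of 17 genes were tested, 0 were higher and 1 lower, and the median was 0.25. The lower gene was Mstn, myostatin, a negative regulator of muscle growth, which fell from 8.45 ± 2.11 to 3.83 ± 1.60 FPKM (log2 fold change -1.18, adjusted P = 0.0188, and 0.00790 with median-ratio scaling). Il4 and Il13, cytokines that recruit cells to growing myotubes, were listed at 0 in all mice.

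Regenerating myofiber and myoblast genes had the highest median of the 6 lists, 0.64, with 16 of 19 tested. At the adjusted threshold 2 were higher, against 2.02% of tested genes, and 0 lower. At the unadjusted one 9 were higher, against 18.1%. Other genes of the list are named here after their values were seen. The 9 were Mybph, Myh3, Ankrd1, Myog, Myf5, Ncam1, Myh8, Pax7 and Nes. Apart from Mybph and Myh3, their log2 fold changes ran from 0.56 for Nes to 2.02 for Ankrd1. Those of Myog and Pax7 were 1.36 and 0.65. None of these passed the adjusted threshold (limma, adjusted P from 0.0623 for Ncam1 to 0.210 for Pax7). Actc1, H19, Igf2 and Myod1 had log2 fold changes of -0.54, -0.027, 0.045 and 0.32 (limma, adjusted P = 0.296, 0.962, 0.927 and 0.645). Mki67, Ccna2 and Top2a had -0.018, 0.18 and 0.62 (adjusted P = 0.990, 0.830 and 0.523). Mybph, a myosin-binding protein of the sarcomere, rose from 9.12 ± 4.39 to 31.0 ± 8.65 FPKM (log2 fold change 1.83, adjusted P = 0.00251). Myh3, the embryonic myosin heavy chain, ranged from 0.551 to 1.81 FPKM in controls and from 1.30 to 25.7 FPKM in CKOs. It rose by a log2 fold change of 2.67 (limma, SE 0.61, adjusted P = 0.0358), with an adjusted P of 0.0524 after median-ratio scaling. By immunostaining of this muscle for the embryonic myosin protein, the study found no positive fibers in controls and a single small fiber in CKOs. By real-time PCR, it reported Pax7 and Myog as modestly increased and Pax3 and Myod1 as unaffected. In these RNA libraries the median CKO held 0.0921 FPKM of Tmem8c. The interval of the Tmem8c log2 fold change ended at 0.65, or at 0.84 without control 1. The added 0.1 FPKM shrinks the fold change of a gene as low as Tmem8c more than that of Myh3. The difference between the fold changes of Myh3 and Tmem8c was not tested. Without CKOs 1, 3 and 6 no gene of the 6 lists passed the adjusted threshold in either direction. In that fit, with fewer CKOs, only 4 of 12695 tested genes were higher and 3 lower. It therefore cannot tell whether the calls of the lists rested on these mice. Without control 1, the genes higher at an adjusted P below 0.05 were 5 of 14 for partners, 3 of 8 for the cadherin complex, 8 of 19 for membrane fusion, 4 of 33 for actin remodeling, 1 of 14 for secreted regulators and 6 of 16 for regenerating genes, where 8.4% of all tested genes were higher.

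**Figure D4:**
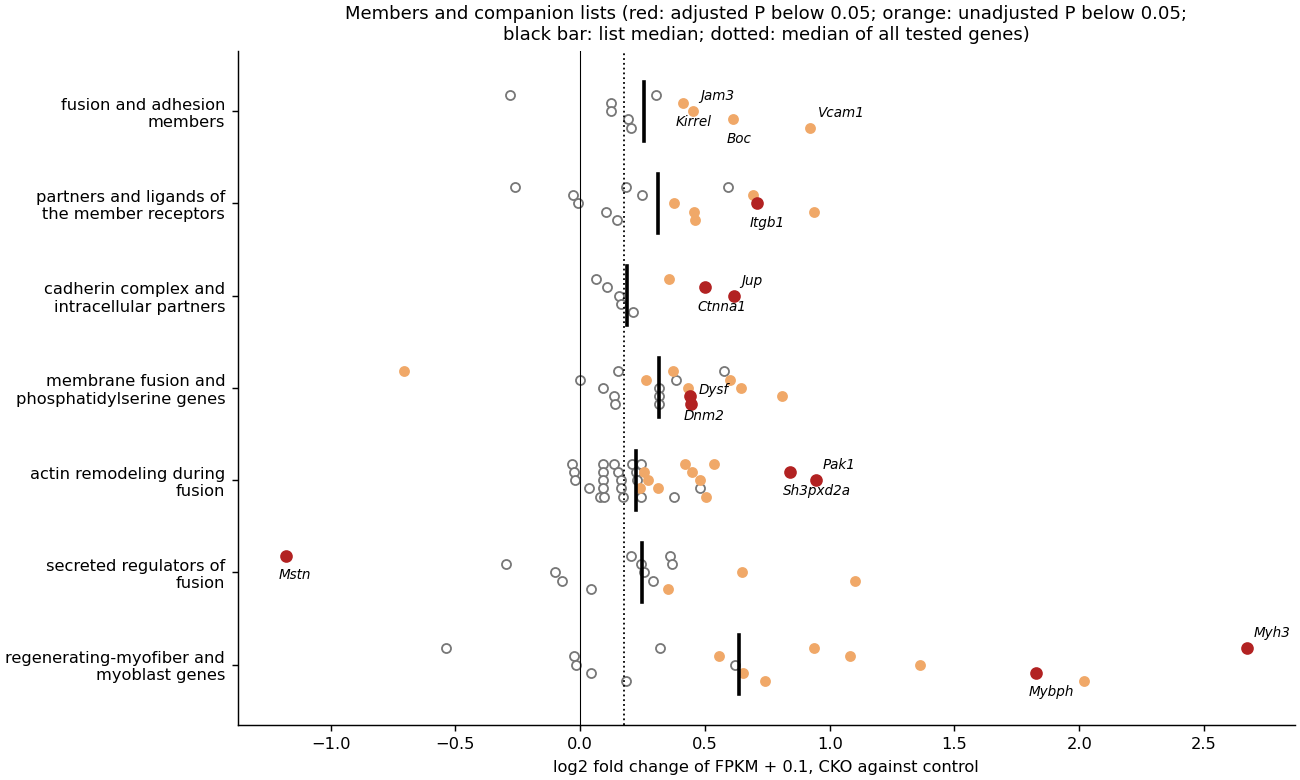
Log2 fold changes of FPKM + 0.1, CKO against control, for the 10 genes (top) and the tested genes of 6 lists; each point is a gene, red points have an adjusted P below 0.05, orange points an unadjusted P below 0.05, black bars are list medians, and the dotted line is the median of all tested genes. No red point lies among the 10 genes, Mstn is the red point on the left, and the red points farthest to the right are Myh3 and Mybph.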

How the data were processed

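RNA was sequenced from the tibialis anterior of 12 mice. Ribosomal RNA was depleted (ScriptSeq Complete Gold), and reads were aligned with bowtie2 and TopHat2 2.0.10 to mm9 with at most 2 mismatches. The authors kept uniquely mapped reads and computed the deposited FPKM values with Cufflinks 2.1.1 (versions and build from the submitters' processing notes). Their count-based DESeq comparison was not repeated, since counts were not used here. Each file had 23950 entries. The 27 with a date in place of a symbol were left out.

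Controls and CKOs were compared by limma 3.58.1 (R 4.3.3, trend in the prior variance) on log2(FPKM + 0.1). A gene was tested if it reached 0.1 FPKM in 6 or more of the 12 samples, and 12695 genes did. Benjamini-Hochberg adjustment was over all of them. Fold changes on this scale understate those of low genes. The code was tested on simulated data. No litters are given, so P-values measure the spread between these samples. Median-ratio scaling divided each sample by the median of its ratios to the geometric mean of each gene over the samples.

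Depth was estimated from the FPKM step of 1 read at 2944 genes with a single transcript of 1000 to 8000 bases in GENCODE M21. Of the values of few reads, 72.6% to 76.5% per sample lay within 0.1 of a whole read, so reads are estimates and no count test was run. Read limits cover counting error only. No coordinates are given, because the files were made on mm9 and the annotation is of GRCm38.

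The 10 genes, the 6 lists of related genes, the 9 marker lists and the tests were chosen with earlier results of these data known. From each list, genes past the adjusted threshold were named, and any others were named after their values were seen. Alternatives were adding 1 FPKM before the log, raising the filter to 1 FPKM or dropping it, scaling by median ratios or quantiles, blocking on the replicate number, limma with no trend or with sample weights, and leaving out each sample in turn. Leaving out CKOs 1, 3 and 6, and median-ratio scaling without control 1, were added after the data were seen.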

Additional observations from a re-analysis of the deposited data

Results flagged for a closer look

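In groups of 6 mice, a highest or lowest value was marked when its gap to the nearest other value exceeded Dixon's 95% critical share of the range. Of 60 such groups, 9 were marked, where chance marks about 1 in 20, and 8 of the 9 were control 1. Among the 10 genes, control 1 was far above the next control for Tmem8c (0.687 against 0.141 FPKM), Boc (1.15 against 0.559 FPKM), Myof (1.55 against 0.972 FPKM) and Vcam1 (2.1 against 0.993 FPKM). Myh3 was at 1.81 FPKM in control 1 and 0.883 FPKM in the next control. Summed markers in control 1 were 732 FPKM for fibro-adipogenic cells and fibroblasts, 43.2 FPKM for macrophages and leukocytes and 54.9 FPKM for tendon, against at most 243, 19.7 and 28.8 FPKM in the other controls. The remaining case was the sum of endothelium markers in CKO 2, at 64.8 FPKM against 52.2 FPKM in the next CKO.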

How the results depend on the processing

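Of 215 log2 fold changes of the 10 genes over the alternatives, 195 kept their direction and their side of the threshold, 10 newly passed it and 10 changed sign; with all 12 mice there was no call to lose. Counts of tested genes higher and lower in CKOs (257 and 34) were 97 and 90 with median-ratio scaling, 101 and 68 with quantile normalization, 1400 and 115 with sample weights, and 4 and 3 without CKOs 1, 3 and 6. With no filter 170 were higher, and 182 were lower with median-ratio scaling without control 1. Of the 10 genes, 2 were higher at an unadjusted P below 0.05 with median-ratio scaling, with quantile normalization, and with a filter at 1 FPKM, which tested 5 of them, and 1 was without CKOs 1, 3 and 6. At an adjusted P, 4 passed with sample weights, namely Jam3 (log2 fold change 0.54), Boc (0.84), Kirrel (0.48) and Vcam1 (1.13), and 1, Vcam1, passed with median-ratio scaling without control 1 (0.93). Genes of the 6 lists passing as higher were 4 with median-ratio scaling, 4 with quantile normalization, 5 without the trend, 30 with sample weights and 0 without CKOs 1, 3 and 6, where 0 passed as lower.

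Signs changed for Cdh15 with median-ratio scaling (-0.046), quantile normalization (-0.095), without CKOs 1, 3 and 6 (-0.071) and with median-ratio scaling without control 1 (-0.0031), for Cdh2 with quantile normalization (-0.041) and without CKOs 1, 3 and 6 (-0.15), for Myof with quantile normalization (-0.023), and for Tmem8c with sample weights (0.11). The causes were not tested. Leaving out one mouse at a time gave 84 to 1067 genes higher and 18 to 69 lower, 4 to 26 list genes higher and 0 to 2 lower, and 0 to 4 of the 10 genes at an adjusted and 2 to 6 at an unadjusted P. Control 1 gave each highest count of genes higher, and CKO 1 the lowest over all genes. The log2 fold changes then ranged from -0.53 to 0.068 for Tmem8c, -0.0063 to 0.21 for Cdh15, 0.038 to 0.31 for Cdh2, 0.14 to 0.28 for Jam2, 0.21 to 0.44 for Cdon, 0.11 to 0.34 for Myof, 0.54 to 0.80 for Boc, 0.39 to 0.53 for Jam3, 0.31 to 0.53 for Kirrel and 0.83 to 1.15 for Vcam1.

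With the replicate number as a block, Vcam1 passed (log2 fold change 0.92, adjusted P = 0.0478 in limma), the only one of the 10 genes to do so (1 of 10). Same-numbered mice had a mean correlation of their deviations of 0.0404 against -0.00879 for other pairs, and 2 of 6 numbers correlated best with their own, so the numbers were not taken as pairs. Depth limited Tmem8c and Cdh2, whose control medians were 2 and 13 estimated reads.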

Other observations

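The tested genes whose log2 values, centered on their mean, lay nearest to those of Tmem8c over the 12 samples were Lrmp, Dancr and Athl1, with root mean square differences of 0.396, 0.415 and 0.434, against a median of 0.812 over all tested genes. In control 1 these genes were at 0.408, 5.28 and 0.808 FPKM, above their control means of 0.17, 1.96 and 0.344 FPKM. Of the lists of other cell types, Schwann cell markers had 3 of 7 genes higher in CKOs at an unadjusted P below 0.05 and 0 at an adjusted one in limma, with summed values of 12 to 16.6 FPKM in controls and 13.6 to 21.6 FPKM in CKOs, and with median-ratio scaling 0 of 7 were higher at an unadjusted P. Pericyte and smooth muscle markers had 1 of 7 and 0 of 7 higher, and with median-ratio scaling 0 higher and 1 lower at an unadjusted P. Tendon markers had 0 of 5 at either threshold, and 1 lower at an unadjusted P with median-ratio scaling. Slow myofiber markers had 5 of 6 higher at an unadjusted P and 0 at an adjusted one, with sums of 14.1 to 46.0 FPKM in controls and 20.2 to 271 FPKM in CKOs, and adult fast myofiber markers had 2 of 8 higher and 1 lower at an unadjusted P, of which 1 was higher at an adjusted one. With median-ratio scaling, slow markers had 4 higher and 1 lower and fast markers 2 higher and 4 lower at an unadjusted P. Over all tested genes in all 12 mice, 18.1% were higher and 1.76% lower at an unadjusted P, and 2.02% higher at an adjusted one. With median-ratio scaling, 841 of 12695 genes were higher and 944 lower at an unadjusted P.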
